A study of Mus musculus with 24 samples.

Results

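The 192 genes described here were protein-coding genes whose messenger RNA was low in the mouse heart 6 h into reperfusion and higher again at 12 h. They were chosen from group means in CPM (reads of a gene, scaled to a library of 1000000 counted reads) by 3 conditions: a sham mean of at least 3 CPM, a 6 h mean of at most 0.4 of the sham mean, and a 12 h mean of at least 1.75 times the 6 h mean. Genes whose symbols start with Zfp, Kcn, Col or mt- were left out beforehand. The files held 46078 genes, of which 21596 were protein-coding in the annotation and 10319 passed the conditions on type, symbol and sham level. Of these, 317 were at or below the 6 h limit, and 125 of those 317 failed the 12 h condition.

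The libraries came from heart tissue of C57BL/6 mice, an inbred laboratory strain, described as wild type. The 8 groups were sham surgery (the control operation), 45 min of ischemia (interrupted blood flow to heart muscle), and the same ischemia followed by 0.5, 1, 1.5, 3, 6 or 12 h of reperfusion (return of flow). Each group held 3 libraries of RNA, and no group carried an engineered allele or a drug per the labels. The labels give neither the age of the mice nor the time of day of collection, and do not say whether each library was 1 animal, so p-values cover only the spread between libraries of a group, in part possibly technical.

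A cardiac messenger RNA is lost from the cell by decay and replaced by transcription, so its level after an injury follows both. Products of the genes in this group include receptors, regulators of the cytoskeleton, ubiquitin ligase adaptors and parts of the primary cilium. That cilium is an antenna-like organelle built on a centriole by intraflagellar transport. The primary cilium is carried by cardiac fibroblasts and other non-dividing cells and holds receptors of developmental signalling pathways. Bulk tissue was sequenced, so fewer cells of a type and less RNA per cell cannot be told apart.

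Between 13407465 and 17181458 reads per library were counted. Duplicates made up 39.2% to 54.5% of them and mitochondrial genes 19.0% to 33.2%. A floor of 3 reads corresponded to 0.175 to 0.224 CPM, and this floor covers counting error only. Summed markers of ventricular cardiomyocytes were at 80850 to 89490 CPM in sham and 75920 to 88710 CPM at 6 h, ranges that overlap, which matches the labelled tissue. Summed neutrophil markers were at 4.53 to 10.1 CPM in sham, 34.1 to 94.2 CPM at 3 h and 144 to 278 CPM at 6 h. Summed smooth muscle and pericyte markers were at 1595 to 1634 CPM in sham and 964 to 1333 CPM at 6 h, and fibroblast markers at 1692 to 1710 and 1214 to 1677 CPM. Single markers went both ways. All 6 h libraries lay below all sham libraries for 3 of 9 smooth muscle and pericyte markers and above them for 2. The counts were 4 and 2 of 10 fibroblast markers and 5 and 5 of 14 ventricular cardiomyocyte markers. Summed endothelial markers were at 1454 to 1497 CPM in sham and 1879 to 2001 CPM at 6 h, with 8 of 13 above all sham libraries and 1 below. At 12 h ventricular cardiomyocyte markers were at 72570 to 74710 CPM, below all sham libraries. Smooth muscle and pericyte markers were then at 1148 to 1405 CPM, fibroblast markers at 1329 to 1786 CPM and neutrophil markers at 222 to 289 CPM. The part of these shifts in the results below was not tested.

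Because sham, 6 h and 12 h means chose the genes, their levels in these groups are a description without a test. The 6 h mean lay between 3.44% and 39.9% of the sham mean, with a median of 29.3%. For 35 genes it was under 20% of sham. At 12 h the mean had a median of 67.4% of sham and ranged from 16.9% to 150.5%. It stood at 90% of sham or more for 28 genes, at or above sham for 10, and under 50% for 37. Sham means ran from 3.05 to 489 CPM with a median of 10.5 CPM, and the 6 h libraries together held 10 to 6873 reads per gene, with a median of 140.5. All 6 h libraries lay below all sham libraries for 191 genes, against 26.2% of the 15128 genes tested, and all 12 h libraries lay above all 6 h libraries for 169, against 25.4%. The conditions themselves led to these counts, so nothing is read from them. Replicate 1 was the highest of the 6 h libraries for 125 of the 192 genes.

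The genes next to the 6 h and 12 h limits had nearly equal values on either side. At the sham limit Ttc41 had a mean of 3.05 CPM and was included. At the 6 h limit Tbc1d31 stood at 0.399 of sham and was included, and Slc28a2 at 0.401 was not. At the 12 h limit Ddx60 had 1.754 times its 6 h mean and was included, and Ecm2 with 1.746 times was not. With duplicate reads removed, 324 genes met the conditions, 183 of them among the 192. Without the replicate 1 library of 6 h the number was 269 and without the replicate 2 library 135. On the CPM scale the median of all 15128 genes differed by 0.03 (log2) between 6 h and sham, by 0.13 between 12 h and 6 h and by 0.20 between 12 h and sham.

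**Figure D1:**
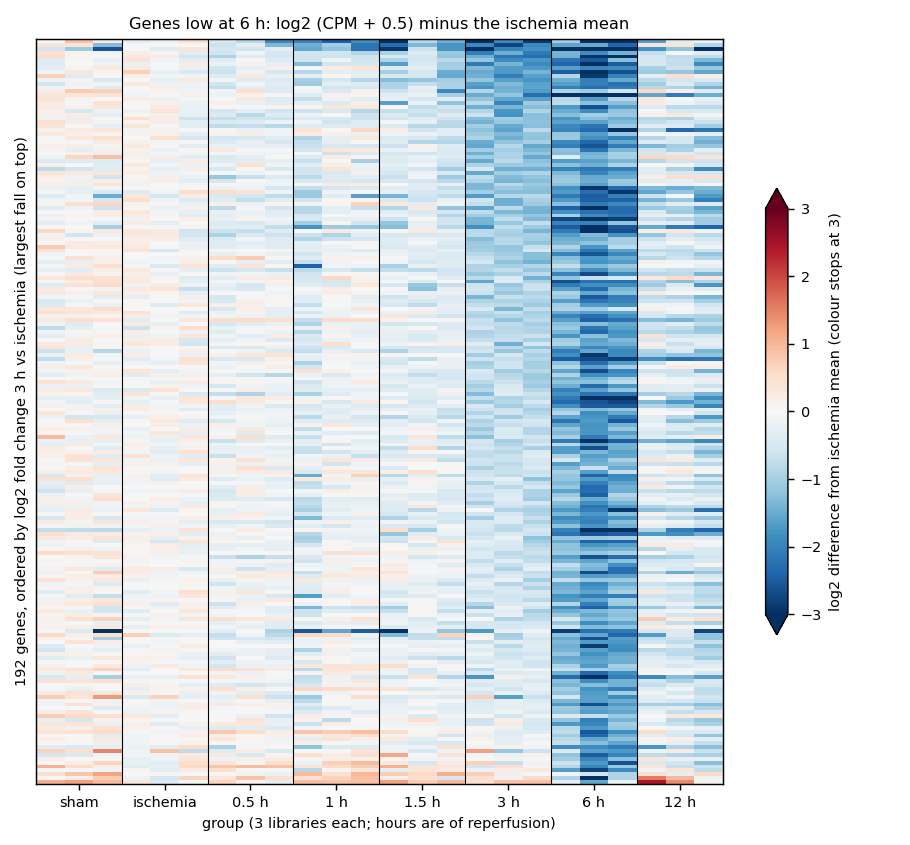
Rows are the 192 genes, ordered by their log2 fold change from ischemia to 3 h, and columns are the 24 libraries. Colour is log2 (CPM + 0.5) minus the mean of the ischemia libraries, and most rows turn blue at 3 h, are darkest at 6 h and are paler at 12 h.

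The 5 groups that played no part in the choice gave the levels before 6 h. Relative to the ischemia mean, the median of the 192 genes on the log2 (CPM + 0.5) scale was between -0.19 and -0.09 in the 0.5 h libraries and between -0.35 and -0.27 in the 1.5 h libraries. In the 3 h libraries it was between -0.81 and -0.68. The 1 h libraries were uneven, with -0.43 in replicate 1 and -0.10 and -0.11 in the others. The 3 h values therefore lay below those of every library of ischemia, 0.5 h, 1 h and 1.5 h. On the same scale the median of all 15128 genes tested moved too, from between -0.003 and 0.076 at 0.5 h to -0.11 in each 1.5 h library and between -0.25 and 0.01 at 3 h. Less that median, the 192 genes were at -0.22 to -0.17 at 0.5 h, -0.29 to -0.11 at 1 h, -0.25 to -0.16 at 1.5 h and -0.73 to -0.51 at 3 h, so the 0.5 h, 1 h and 1.5 h libraries overlapped and the 3 h libraries lay below them.

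The read counts of 15128 genes entered the quasi-likelihood test of edgeR, and a gene was called at a Benjamini-Hochberg adjusted p under 0.05. All 192 genes passed the filter on low counts. From ischemia to 3 h, 113 of the 192 (58.9%) were called lower and 0 higher, against 11.8% called lower and 12.5% called higher among all genes tested. The median log2 fold change was -0.71 for the 192 genes and -0.02 for all genes tested, 181 of the 192 values were negative, and 50 of the called genes fell at least 2-fold. Scaling by library totals alone shifted the median of all genes to -0.12 and made 65.3% of all called genes lower ones, against 48.5% before, and 127 of the 192 were then called lower. For 150 of the 192, all 3 h libraries lay below all ischemia libraries, against 22.4% of all genes tested.

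From 0.5 h to 3 h, 60 of the 192 (31.2%) were called lower and 0 higher, where 7.4% and 10.1% of all genes tested were called. The comparisons that end at 3 h share the 3 h libraries, and 59 of the 60 genes were called lower from ischemia as well. With library totals alone 66.4% of all called genes were lower ones, against 42.3%. From 1.5 h to 3 h, 46 of the 192 were called lower and 0 higher, against 3.17% and 5.36% of all genes tested. That count fell most without replicate 1 or 2 of 1.5 h (23 and 18) and without replicate 1 or 3 of 3 h (22 and 16). Genes called lower among all genes tested fell as well, from 479 to 227, 166, 273 and 143 in the same order. From 0.5 h to 1.5 h, 0 were called lower and 1 higher, against 0.271% and 1.04% of all genes tested, and the median log2 fold change was -0.01. DESeq2 called 0 lower and 3 higher there, and without the filter on low counts 6 were called lower and 7 higher. Over all genes tested, DESeq2 called 106 lower and 295 higher of 15128, and the fit without the filter 268 and 515 of 26977.

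**Figure D2:**
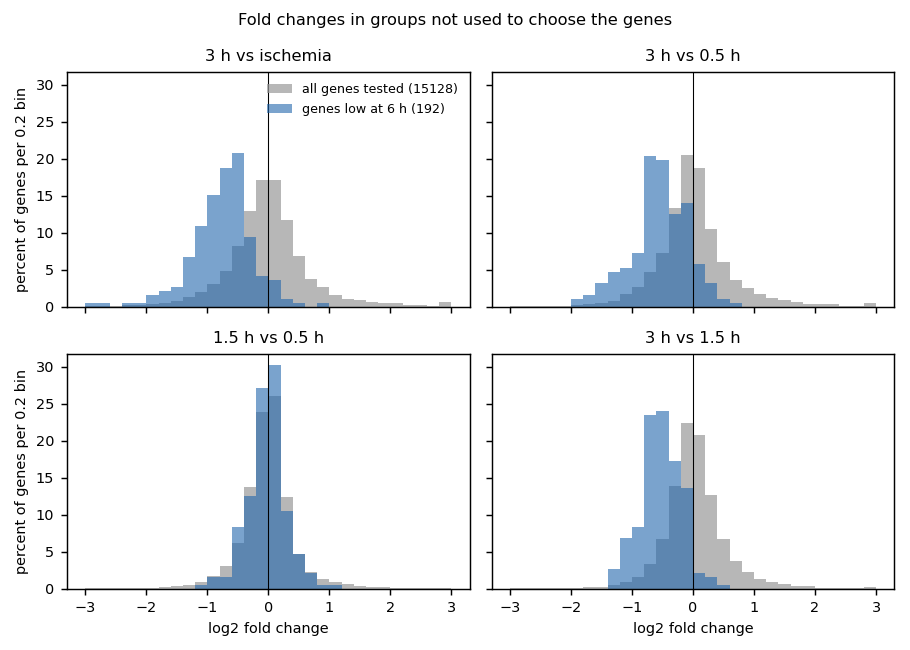
Each panel gives the share of genes per bin of 0.2 in log2 fold change, for the 192 genes (blue) and all 15128 genes tested (grey), and values beyond 3 are drawn in the end bins. The blue distribution lies left of the grey one in the 3 comparisons that end at 3 h and on top of it from 0.5 h to 1.5 h.

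In at least 1 of the 4 comparisons 114 genes were called lower, and 78 were never called lower. At 3 h 41 genes were called lower against each of ischemia, 0.5 h and 1.5 h. The same overlaps were not counted over all genes tested, and the comparisons that end at 3 h share libraries. Nothing beyond the single comparisons above is therefore read from the 114 and the 41. In the sentences that follow, genes outside the naming rule given with the processing are named for their role and were chosen after their values were seen. The grouping by role was also made after the values were seen.

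Among these roles, the cilium and the centrosome had the largest share of called genes from ischemia to 3 h. From 0.5 h to 3 h, sugar, amino acid and cofactor metabolism (5 of 8) and DNA repair (2 of 3) had larger shares. Of 17 cilium and centrosome genes 15 were called lower from ischemia to 3 h, with a median log2 fold change of -0.90. From 0.5 h to 3 h 10 of them were called lower. The shares over the 192 were 58.9% and 31.2% and those over all genes tested 11.8% and 7.4%. The counts of the other roles given below are to be read against the same shares, and none was tested against them. Intraflagellar transport carries cargo along the cilium in trains of proteins, and Ttc30b and Ttc30a1 encode near-identical forms of 1 subunit of the anterograde train. Ttc30b (ENSMUSG00000075273, GRCm38 chr2:75935849-75938585, minus strand) had 18.9, 22.6 and 16.2 CPM after ischemia and 6.68, 7.04 and 7.55 CPM at 3 h. Its sham libraries had 23.1, 21.0 and 24.8 CPM, its 6 h libraries 5.45, 2.65 and 5.83 CPM, and its 12 h libraries 14.3, 10.9 and 10.8 CPM. The 3 h libraries lay far below all ischemia libraries and close to one another, and the log2 fold change was -1.35 ± 0.21 (SE, adjusted p = 7.01e-05). Ttc30a1, 39661 bases away, had 4.0, 4.4 and 4.59 CPM after ischemia and 1.36, 2.28 and 1.76 CPM at 3 h, without overlap (-1.15 ± 0.24, adjusted p = 0.00105). Uniquely mapped reads were used here, so reads that map to both near-identical copies are left out. For Ttc30b the unique reads were 97.2% of the count with multiply mapped reads added. How the shared reads divide between the copies is not given in the sources used here, so the split remains uncertain.

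Ift140 and Ttc21b encode parts of the retrograde train, which returns cargo to the cell body. Ift140 had 9.18, 6.74 and 11.8 CPM after ischemia, 5.20, 5.01 and 4.03 CPM at 3 h, 4.13, 2.42 and 2.23 CPM at 6 h and 8.24, 8.38 and 5.88 CPM at 12 h. Its 3 h libraries lay below all ischemia libraries, with a log2 fold change of -0.85 ± 0.22 (adjusted p = 0.00684), and its 12 h mean was at 97.4% of sham. Ttc21b fell by 0.53 ± 0.17 on the log2 scale (adjusted p = 0.0255), a call lost without replicate 1 or 2 of ischemia (adjusted p = 0.0535 and 0.0802) and without replicate 1 or 3 of 3 h (adjusted p = 0.117 and 0.122). It was also lost without the filter on low counts (adjusted p = 0.0822) and in a fit of only the 15 libraries outside the sham, 6 h and 12 h groups (adjusted p = 0.0615). Sclt1 and Ubxn10, also among the 15, lost their calls without the filter on low counts (adjusted p = 0.103 and 0.0704) and when single libraries were left out: replicate 1 or 2 of ischemia or 1 or 3 of 3 h for Sclt1 (adjusted p of 0.0876 to 0.165), and replicate 2 or 3 of ischemia or any of 3 h for Ubxn10 (adjusted p of 0.0512 to 0.179). Cc2d2a and Rpgrip1l belong to the transition zone, the gate at the base of the cilium. They fell by 0.91 ± 0.19 (adjusted p = 0.00112) and 1.20 ± 0.29 (adjusted p = 0.00335) on the log2 scale from ischemia to 3 h.

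Cep97 encodes a cap protein of the centriole that restrains cilium assembly. It had 10.6, 7.91 and 8.64 CPM after ischemia, 8.63, 10.9 and 6.73 CPM at 0.5 h and 7.47, 6.16 and 6.95 CPM at 1.5 h. At 3 h it had 3.65, 2.73 and 2.58 CPM, at 6 h 4.85, 2.54 and 4.65 CPM, and at 12 h 11.2, 9.08 and 7.47 CPM. The 3 h and 6 h libraries overlapped with one another and lay below all others, and the log2 fold change from ischemia to 3 h was -1.51 ± 0.23 (adjusted p = 3.40e-05). Ubxn10, whose product takes part in cilium assembly, was at 0.359, 0.236 and 0.186 CPM at 6 h, with 13 reads in all and its lowest library at the floor. Its 12 h mean, 16.9% of sham, was the lowest of the 192. Ttc8, of the BBSome, and Tbc1d32 were the genes of this role that were not called from ischemia to 3 h.

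Promoters of the genes of this role were also searched for motifs, and a link between a motif and the falls was not tested. RefSeq promoters of GRCm38.p6, from 250 bases before to 50 bases after the start, matched 139 of the 192 genes by symbol, 13 of them of the cilium and centrosome. The CCAAT box, searched as CCAAT on both strands, was in 8 of the 13 (61.5%), in 44.6% of the 139, in 38.1% of the 8189 promoters of genes that passed the sham condition and in 37.9% of all 27025. Windows were drawn only where a CCAAT box or the motif GTTGCC, described below, lay before the start, so the boxes shown follow from that choice. The windows of 70 bases below end before the start of transcription and are written 5′ to 3′ on the strand of the gene, and capitals mark the CCAAT box or its reverse complement. They lie at chr16:55934883-55934952 (minus strand) for Cep97, chr17:25016016-25016085 (plus strand) for Ift140, chr2:66256630-66256699 (minus strand) for Ttc21b and chr2:75981978-75982047 (minus strand) for Ttc30a1.
Cep97: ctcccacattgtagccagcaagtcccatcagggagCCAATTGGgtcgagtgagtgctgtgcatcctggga
Ift140: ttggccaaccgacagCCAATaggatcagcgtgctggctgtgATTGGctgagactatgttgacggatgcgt
Ttc21b: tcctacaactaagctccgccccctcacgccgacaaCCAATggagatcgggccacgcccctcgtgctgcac
Ttc30a1: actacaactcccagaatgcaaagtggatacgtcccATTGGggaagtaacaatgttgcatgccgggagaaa

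Ift140 and Cep97 held the box on both strands within their windows, in Cep97 as overlapping matches, and the other windows shown held 1. The motif GTTGCC, part of the X-box that RFX factors bind in ciliary genes, was in 4 of the 13 (30.8%), in 16.5% of the 139 and in 12.6% of the 8189. It was added after the values were seen, and none of the 4 windows above holds it. The other motifs were in similar or smaller shares of the 139 than of the 8189 promoters: CACGTG in 10.8% and 10.7%, TATAAA in 7.19% and 6.94%, TGACGT in 8.63% and 12.6%, TGANTCA in 2.88% and 4.57%, TGTTTAC in 1.44% and 2.39%, and GGGCGG in 52.5% and 66.9%. All were searched on both strands, and a match describes letters only.

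The rest of the ciliary machinery was looked at in 4 lists, written after the values were seen, of intraflagellar transport, the BBSome, the transition zone, and the appendages and cap of the centriole. Of 75 tested genes in these lists 24 were called lower and 0 higher from ischemia to 3 h, with a median of -0.41. Leaving aside the 12 that belong to the 192, 13 of 63 (20.6%) were called lower and 0 higher, with a median of -0.31, against 11.8% and -0.02 over all genes tested. This count dropped to 6 in each of 3 fits that left out replicate 1 or 2 of ischemia or replicate 3 of 3 h. Among all genes tested, those fits called 1064 of 15441, 1211 of 15440 and 1070 of 15439 lower, against 1787 of 15128 in the full fit. The 13 included Bbs10 (-1.88 ± 0.40, adjusted p = 0.0014), a chaperonin-like factor of BBSome assembly, and Pcm1 (-0.69 ± 0.16, adjusted p = 0.00317), the scaffold of centriolar satellites. At 6 h Bbs10 was at 46.3% of sham and Pcm1 at 55.2%, both outside the 6 h limit. Cells with cilia were not measured separately, and the fibroblast markers given above were at 1777 to 2231 CPM at 3 h and 1821 to 2141 CPM after ischemia, ranges that overlap.

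**Figure D3:**
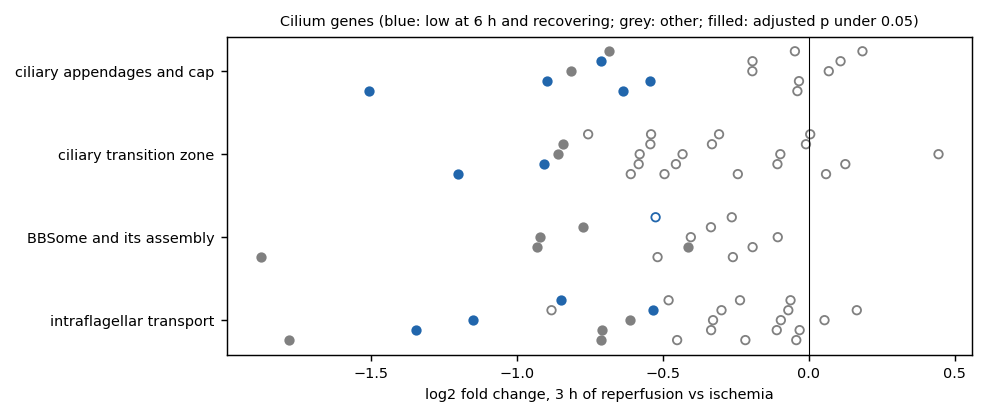
Each point is a gene of 1 of the 4 cilium lists, placed by its log2 fold change from ischemia to 3 h, with vertical offsets only for legibility. Filled points were called, and all filled points, blue or grey, lie left of 0.

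The cytoskeleton gave 11 genes, of which 7 were called lower from ischemia to 3 h (median -0.83). Ky encodes a muscle protein of the Z-disc region, and its loss causes kyphosis in mice. It had 29.0, 29.9 and 29.98 CPM in sham, 21.3, 22.2 and 25.6 CPM after ischemia and 20.3, 25.1 and 23.4 CPM at 0.5 h. It had 18.3, 20.1 and 11.2 CPM at 1.5 h, 7.85, 9.83 and 4.41 CPM at 3 h, 1.62, 0.472 and 1.12 CPM at 6 h, and 7.48, 4.95 and 8.06 CPM at 12 h. The 3 h libraries lay below all earlier ones and the 6 h libraries below all others, at 3.61% of sham, and 12 h reached 23.1% of sham. The log2 fold change was -1.53 ± 0.26 from ischemia to 3 h (adjusted p = 0.000136) and -1.48 ± 0.26 from 0.5 h to 3 h (adjusted p = 0.000268). The sarcomere and Z-disc list, in which no gene belongs to the 192, had 1 of 26 genes called lower and 3 higher from ischemia to 3 h.

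Clasp1, which binds and stabilises growing microtubule ends, had the highest sham mean in CPM and 25.4 CPM per kb of its gene model. It had 559, 536 and 372 CPM in sham, 565, 499 and 596 CPM after ischemia, 232, 486 and 374 CPM at 3 h, 153, 102 and 160.4 CPM at 6 h and 256, 359.5 and 216 CPM at 12 h. The 3 h libraries were spread over a wide range, and the change from ischemia was not called (-0.47 ± 0.26, adjusted p = 0.198). It was called without 3 h replicate 2 (-0.83, adjusted p = 0.0293) and without the filter on low counts (-0.46, adjusted p = 0.0132). Fgd4, an activator of the GTPase Cdc42, fell by 1.21 ± 0.22 (adjusted p = 0.000239) and Tppp, a tubulin polymerisation factor, by 0.85 ± 0.16 (adjusted p = 0.000448) on the log2 scale.

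Ubiquitin and SUMO enzymes gave 9 genes, 6 of them called lower from ischemia to 3 h (median -0.76). Fbxo32 (GRCm38 chr15:58175879-58214932, minus strand) encodes atrogin-1, a ligase subunit of muscle wasting and a target of FOXO factors. It had 181, 187 and 250.5 CPM in sham, 196, 209 and 250.2 CPM after ischemia and 222, 182 and 175 CPM at 0.5 h. It had 152, 93.3 and 80.8 CPM at 3 h, 101, 62.6 and 67.2 CPM at 6 h, and 244, 205 and 202 CPM at 12 h. The 3 h and 6 h libraries lay below all sham and ischemia libraries, and the 12 h libraries lay within the sham range, with a mean of 105% of sham. The log2 fold change from ischemia to 3 h was -0.92 ± 0.19 (adjusted p = 0.00115).

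Klhl38, a Kelch-family adaptor expressed in muscle, is the neighbour of Fbxo32, 99640 bases away, and fell by 0.76 ± 0.22 (adjusted p = 0.0139). Of its exon bases 65.4% overlap another annotated gene, and strand use in counting is not stated, so its reads are of uncertain origin. Its call was lost without ischemia replicate 2 (adjusted p = 0.0737) and without 3 h replicate 3 (adjusted p = 0.0835). Senp8 and Senp7 are proteases, of NEDD8 and of SUMO chains. Senp8 had 7.02, 6.54 and 4.71 CPM after ischemia, 3.92, 5.38 and 4.08 CPM at 0.5 h and 1.05, 1.84 and 1.01 CPM at 3 h, without overlap. Its log2 fold change was -2.12 ± 0.31 from ischemia (adjusted p = 2.47e-05) and -1.62 ± 0.31 from 0.5 h (adjusted p = 0.000705). Senp7 fell by 0.98 ± 0.17 (adjusted p = 0.00024).

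Rnf207, a cardiac ubiquitin ligase linked to the duration of the action potential, followed a later course. It had 84.4, 76.9 and 103 CPM after ischemia, 66.7, 72.3 and 72.4 CPM at 3 h, 26.5, 13.4 and 26.7 CPM at 6 h and 43.4, 43.1 and 36.0 CPM at 12 h. Its 3 h libraries lay just below those of ischemia, with no call (-0.21 ± 0.17, adjusted p = 0.403), and its 6 h libraries far below. Klhl33 had 6.49, 6.12 and 11.4 CPM after ischemia and 13.05, 4.57 and 6.92 CPM at 3 h, so the groups overlapped. In the whole list of ubiquitin ligases and adaptors, which holds 4 of the 192 genes, 9 of 35 were called lower and 8 higher from ischemia to 3 h.

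Hormones, growth factors and their receptors gave 15 genes, 7 of them called lower from ischemia to 3 h (median -0.67). Igf1 encodes a growth and survival factor made by many cardiac cells. It had 27.1, 20.5 and 16.4 CPM after ischemia, 12.1, 12.8 and 11.2 CPM at 0.5 h, 16.2, 15.8 and 15.7 CPM at 1 h and 9.83, 6.98 and 8.43 CPM at 3 h. At 6 h it had 5.15, 4.25 and 9.49 CPM and at 12 h 16.6, 15.5 and 9.94 CPM. The 0.5 h libraries were already below those of ischemia, and the fall was called from ischemia to 3 h (-1.26 ± 0.24, adjusted p = 0.000388) but not from 0.5 h (-0.38 ± 0.24, adjusted p = 0.296). Igfals, which encodes a carrier subunit of circulating IGF-1, was not called (0.16 ± 0.37, adjusted p = 0.788). Pik3ip1, a brake on PI3-kinase, had 21.6, 24.6 and 33.7 CPM after ischemia and 25.9, 13.8 and 15.4 CPM at 3 h, so the groups overlapped. From ischemia it was not called (-0.45 ± 0.21, adjusted p = 0.124), but it was without 3 h replicate 1 (-0.71, adjusted p = 0.0246) and without the filter on low counts (-0.44, adjusted p = 0.0368). It was called from 0.5 h (-0.77 ± 0.21, adjusted p = 0.0112), and 12 h stood at 104% of sham. The list of insulin, AKT and FOXO genes, with Igf1 and Pik3ip1 in it, had 1 of 29 genes called lower and 3 higher from ischemia to 3 h.

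Angpt1 encodes angiopoietin-1, a ligand that keeps endothelial junctions tight through Tie2. It had 64.0, 43.6 and 51.6 CPM in sham, 52.5, 48.6 and 27.1 CPM after ischemia, 26.6, 24.8 and 31.1 CPM at 0.5 h and 41.0, 49.8 and 37.1 CPM at 1 h. At 3 h it had 23.1, 21.4 and 15.6 CPM, at 6 h 9.23, 3.77 and 6.2 CPM and at 12 h 47.1, 52.3 and 37.4 CPM. The 6 h libraries lay below all others, and the 12 h mean was 7.12 times the 6 h mean and at 85.9% of sham. The fall from ischemia to 3 h was called (-1.01 ± 0.25, adjusted p = 0.00398), that from 0.5 h was not (-0.31 ± 0.25, adjusted p = 0.422). Summed smooth muscle and pericyte markers were at 1488 to 1624 CPM after ischemia and 1518 to 1628 CPM at 3 h. Which cells held the Angpt1 RNA was not measured, and the part of cell numbers in its values was not tested.

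Steroid and peptide hormone receptors were among them. Nr3c2, the mineralocorticoid receptor, had 26.6, 23.0 and 23.7 CPM after ischemia, 15.1, 12.4 and 14.9 CPM at 0.5 h, 17.9, 22.6 and 23.9 CPM at 1 h and 18.4, 15.03 and 14.0 CPM at 3 h. Its 0.5 h libraries overlapped with those of 3 h and lay below those of 1 h, and the fall from ischemia was called by a small margin (-0.54 ± 0.19, adjusted p = 0.0419). That call was lost without replicate 1 or 2 of ischemia (adjusted p = 0.169 and 0.0823) and without any 1 of the 3 h libraries (adjusted p of 0.0539 to 0.169). Agtr1a, the main angiotensin II receptor, was not called from ischemia to 3 h (-0.27 ± 0.17, adjusted p = 0.255). Its 6 h libraries had 13, 9.20 and 14.7 CPM against 36.5, 41.5 and 39.2 CPM in sham. Sfrp1, a secreted Wnt antagonist, fell by 0.71 ± 0.20 (adjusted p = 0.0107), and lost its call without ischemia replicate 1 (adjusted p = 0.0799). In the Wnt list of 33 tested genes, 4 were called lower and 3 higher.

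**Figure D4:**
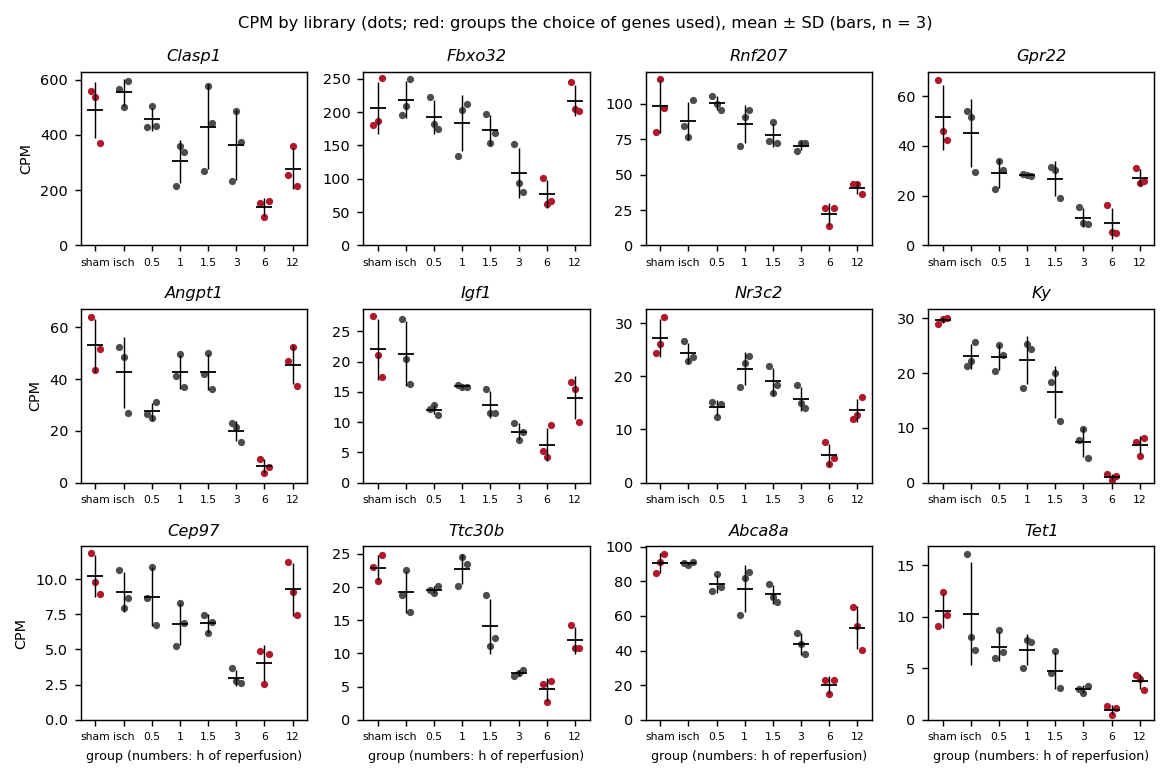
CPM of 12 genes is plotted for each library by group, with the mean and SD (n = 3) as bars, and red dots mark the sham, 6 h and 12 h groups used to choose the genes. Gpr22, Ky, Cep97, Ttc30b and Tet1 are low by 3 h, whereas Rnf207 keeps most of its level at 3 h and is low at 6 h.

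G protein-coupled receptors and cyclic nucleotide signalling gave 9 genes, 5 called lower from ischemia to 3 h (median -0.58). Gpr22 (GRCm38 chr12:31706867-31713947, minus strand) encodes an orphan receptor of heart and brain coupled to inhibitory G proteins. It had 66.6, 45.9 and 42.2 CPM in sham, 54.2, 51.7 and 29.6 CPM after ischemia and 22.7, 33.9 and 30.5 CPM at 0.5 h. It had 28.8, 28.3 and 28.1 CPM at 1 h, 15.5, 9.20 and 8.62 CPM at 3 h, 16.1, 5.37 and 5.15 CPM at 6 h and 31.1, 24.9 and 25.8 CPM at 12 h. The level stepped down by 3 h, the 3 h and 6 h libraries overlapped, and the log2 fold change was -1.96 ± 0.32 from ischemia (adjusted p = 8.85e-05) and -1.25 ± 0.32 from 0.5 h (adjusted p = 0.00716). Gpr157, a receptor reported in cilia of neural progenitors, fell by 0.58 ± 0.17 (adjusted p = 0.0163) from ischemia to 3 h. Its call was lost without ischemia replicate 3 (adjusted p = 0.0584) and without 3 h replicate 3 (adjusted p = 0.0847). Pde4a, which degrades cyclic AMP, fell by 0.66 ± 0.19 (adjusted p = 0.0144), with the call lost without replicate 1 or 3 of 3 h (adjusted p = 0.0913 and 0.074). Among the 31 tested genes of the receptor list, with Gpr22, Gpr157 and Agtr1a in it, 7 were called lower and 7 higher.

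Lipid transport and metabolism gave 15 genes, 8 called lower from ischemia to 3 h (median -0.65). They include 4 neighbouring transporter genes of the ABCA family on chromosome 11, Abca8b, Abca8a, Abca9 and Abca6, between bases 109932190 and 110251776 of GRCm38. Abca8a had 90.7, 89.5 and 90.9 CPM after ischemia, 74.6, 84.5 and 76.8 CPM at 0.5 h, 50.2, 43.5 and 37.8 CPM at 3 h, 22.9, 14.9 and 23.3 CPM at 6 h and 65.1, 54.4 and 40.2 CPM at 12 h. The 3 h and 6 h libraries did not overlap with each other or with those of ischemia (-0.95 ± 0.15, adjusted p = 4.88e-05). Abca9 (-1.11 ± 0.21, adjusted p = 0.000363) and Abca8b (-0.82 ± 0.18, adjusted p = 0.00157) were also called from ischemia to 3 h, and Abca6 was not (-0.52 ± 0.29, adjusted p = 0.206). Of the 11 tested Abca genes, 4 were called lower and 3 higher, so members of the family were called in both directions.

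Pnpla3, a lipase of lipid droplets, had 4.72, 5.09 and 5.13 CPM after ischemia, 3.01, 4.02 and 1.67 CPM at 0.5 h and 0.928, 0.317 and 0.944 CPM at 3 h. The groups did not overlap, the log2 fold change was -2.67 ± 0.52 from ischemia (adjusted p = 0.000527), and 12 h stood at 104% of sham. From 0.5 h it was -1.84 ± 0.53 (adjusted p = 0.0169), a call lost without 0.5 h replicate 2 (adjusted p = 0.0867), without 3 h replicate 2 (adjusted p = 0.0726) and with limma-voom (adjusted p = 0.076). Scd4, a heart-expressed desaturase, had 18.7, 11.1 and 14.9 CPM after ischemia, 20.7, 27.2 and 26.7 CPM at 3 h, 11.9, 4.60 and 12.8 CPM at 6 h and 81.3, 40.0 and 15.6 CPM at 12 h. The 3 h libraries lay above those of ischemia without a call (0.85 ± 0.37, adjusted p = 0.0959), and the 12 h libraries were spread from 15.6 to 81.3 CPM. In a fit of only the 15 libraries outside the sham, 6 h and 12 h groups the 3 h rise was called (0.87, adjusted p = 0.0128). Its neighbour Scd2 was not called either (-0.65 ± 0.28, adjusted p = 0.0955). Without the filter on low counts both were called (adjusted p = 2.3e-06 for Scd4 and 0.000972 for Scd2).

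Enzymes of sugar, amino acid and cofactor metabolism gave 8 genes, 5 called lower from ischemia to 3 h (median -0.85). Pdp2, a phosphatase that switches on pyruvate dehydrogenase, had 14.0, 18.0 and 22.2 CPM after ischemia, 26.1, 27.3 and 25.2 CPM at 0.5 h and 11.1, 7.42 and 10.1 CPM at 3 h. The 0.5 h libraries were the highest of these and the 3 h libraries the lowest, and the log2 fold change was -0.83 ± 0.22 from ischemia (adjusted p = 0.00857) and -1.33 ± 0.22 from 0.5 h (adjusted p = 0.000171). Dhtkd1, a mitochondrial dehydrogenase of lysine breakdown, had -0.94 ± 0.22 (adjusted p = 0.00256) and -1.40 ± 0.21 (adjusted p = 6.03e-05) in the same comparisons. Pfkfb1, a regulator of glycolysis, was the gene called higher from 0.5 h to 1.5 h (1.12 ± 0.28, adjusted p = 0.0446). It had 5.69, 4.86 and 4.63 CPM at 0.5 h and 9.35, 8.44 and 11.8 CPM at 1.5 h, without overlap. The call was lost when any 1 of the 0.5 h libraries or replicate 1 or 3 of 1.5 h was left out (adjusted p of 0.093 to 0.23), and with limma-voom, library totals or duplicates removed (adjusted p = 0.0551, 0.082 and 0.0938). In the list of fatty acid, glucose and amino acid metabolism, 3 of 34 genes were called lower and 5 higher from ischemia to 3 h.

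Genes for mitochondrial gene expression and assembly numbered 5, 4 of them called lower. Tmem126b, an assembly factor of complex I, fell by 1.15 ± 0.16 (adjusted p = 1.71e-05). Trmt5, a methyltransferase of transfer RNA, had 38.0, 30.8 and 30.6 CPM after ischemia, 16.7, 18.1 and 17.3 CPM at 3 h and 8.03, 6.37 and 8.93 CPM at 6 h. Its groups did not overlap, and it fell by 0.83 ± 0.18 (adjusted p = 0.00163).

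Transcription and chromatin gave 9 genes, 4 called lower from ischemia to 3 h (median -0.80). Tet1 encodes an enzyme that oxidises methylcytosine in DNA. It had 16.1, 8.05 and 6.83 CPM after ischemia, 6.01, 8.68 and 6.55 CPM at 0.5 h, 3.03, 2.60 and 3.34 CPM at 3 h, 1.32, 0.472 and 1.12 CPM at 6 h and 4.31, 4.02 and 2.94 CPM at 12 h. It had 4.58, 6.67 and 3.13 CPM at 1.5 h. Its 3 h libraries lay below those of ischemia and 0.5 h and overlapped with those of 1.5 h, with a log2 fold change of -1.70 ± 0.31 from ischemia (adjusted p = 0.000286), and 12 h reached 35.5% of sham. Bcl11a, a zinc finger repressor, fell by 1.17 ± 0.26 (adjusted p = 0.00203). In the list of histone and chromatin modifiers, 5 of 36 genes were called lower, Tet1 among them, and 12 higher. The Eph receptors, which read ephrins on neighbouring cells, gave Epha4 (-1.02 ± 0.30, adjusted p = 0.0145) and Epha7 (-1.31 ± 0.28, adjusted p = 0.00142), both called lower from ischemia to 3 h. Ephb1 was not called (0.03 ± 0.27, adjusted p = 0.954), and the call of Epha4 was lost without 3 h replicate 1 (adjusted p = 0.0849).

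Arntl encodes BMAL1, the positive factor of the circadian clock, and its values were widely spread within several groups. It had 29.99, 22.3 and 2.31 CPM in sham, 30.6, 30.9 and 29.8 CPM after ischemia, 24.2, 30.7 and 15.5 CPM at 0.5 h and 4.73, 9.80 and 5.05 CPM at 1 h. It had 2.64, 26.8 and 13.1 CPM at 1.5 h, 8.91, 25.8 and 28.0 CPM at 3 h, 3.89, 6.01 and 6.57 CPM at 6 h and 21.6, 22.2 and 4.12 CPM at 12 h. Low and high libraries stood side by side in sham, 1.5 h, 3 h and 12 h, all 6 h libraries were low, and the change from ischemia to 3 h was not called (-0.42 ± 0.62, adjusted p = 0.665). Dbp, an output gene of the clock that runs opposite to Arntl, had 5.54, 12.6 and 45.3 CPM in sham and 38.7, 23.0 and 46.5 CPM at 6 h, high where Arntl was low. In the clock list 0 of 21 genes were called lower and 12 higher from ischemia to 3 h.

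As a measure of likeness, the deviations of log2 (CPM + 0.5) from the group means were correlated with those of Arntl over the 24 libraries. Pearson's r was 0.873 for Spon2, 0.818 for Fbn2, 0.759 for Epha4, 0.745 for Clasp1 and 0.734 for Pnpla3. Over 0.7 were 5 of 191 genes (2.62%), against 41 of 14936 (0.275%) among tested genes outside the 192. These values describe 24 libraries that each gene shares with Arntl, depth included. The 24 include the sham, 6 h and 12 h libraries that chose the 192 genes, Arntl among them, so nothing is read from the difference in shares. Epha4, for example, had 74.4, 71.6 and 36.1 CPM in sham and 20.04, 43.0 and 34.4 CPM at 3 h, lowest in the libraries where Arntl was lowest. How far the phase of the clock enters the levels of these 5 genes at 6 h was not tested, and it cannot be told apart from the group there, where all 3 libraries had low Arntl. Nor was it tested from ischemia to 3 h, where Spon2, Epha4 and Pnpla3 were called lower. Arntl had 30.6, 30.9 and 29.8 CPM after ischemia and 8.91, 25.8 and 28.0 CPM at 3 h. Dbp had 2.36, 4.47 and 6.22 CPM after ischemia and 53.4, 8.18 and 10.6 CPM at 3 h.

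**Figure D5:**
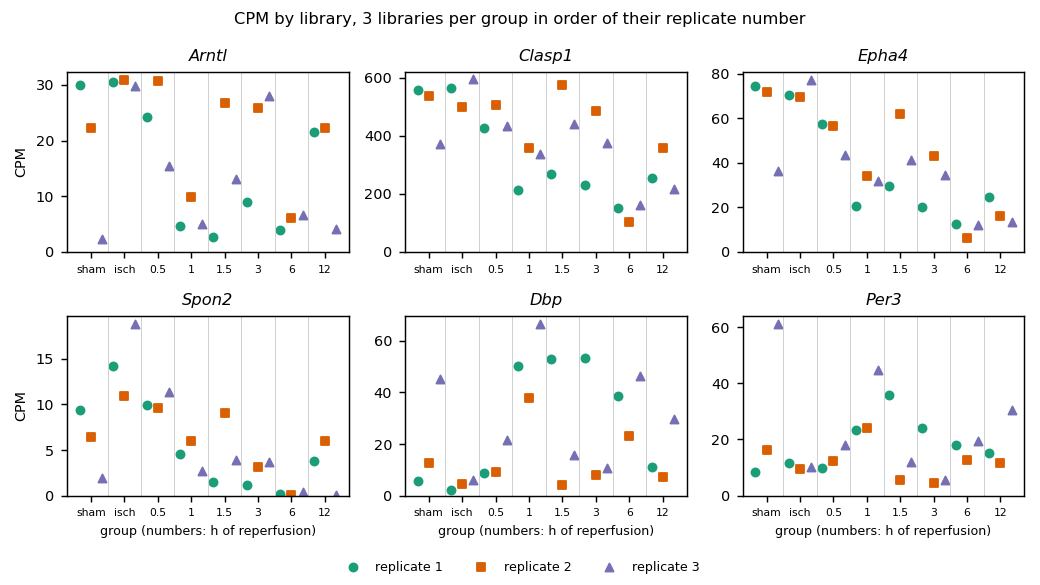
CPM per library is plotted for Arntl, Clasp1, Epha4 and Spon2 and for the clock output genes Dbp and Per3, with replicates 1 to 3 of a group in order and vertical lines between groups. Replicate 3 of sham, replicate 1 of 1.5 h, replicate 1 of 3 h and replicate 3 of 12 h are low for Arntl and high for Dbp and Per3.

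Genes of the matrix, adhesion and secreted proteases numbered 6, 4 of them called lower from ischemia to 3 h (median -0.86). Spon2, a secreted matrix protein, had 14.2, 10.9 and 18.8 CPM after ischemia, 9.94, 9.65 and 11.4 CPM at 0.5 h and 1.11, 3.17 and 3.71 CPM at 3 h. At 6 h it had 0.18, 0.059 and 0.372 CPM, 10 reads in all and at or near the floor, and at 12 h 3.81, 5.94 and 0.118 CPM. The change from ischemia to 3 h was -2.33 ± 0.62 (adjusted p = 0.00821), while that from 0.5 h, -1.79 ± 0.63 (adjusted p = 0.049), was lost without any 1 of the 6 libraries of that comparison, with DESeq2 (adjusted p = 0.127) and with median-ratio size factors in edgeR (adjusted p = 0.0509). Htra3, a secreted serine protease, had 76.9, 78.1 and 77.9 CPM in sham, 85.9, 78.8 and 120.1 CPM after ischemia, 57.0, 48.7 and 55.1 CPM at 3 h, 21.0, 6.01 and 9.55 CPM at 6 h and 96.8, 43.5 and 25.5 CPM at 12 h. Its 3 h libraries lay below those of ischemia without a call (-0.72 ± 0.30, adjusted p = 0.085) in the fit of all libraries and with one in a fit of only the 15 libraries outside the sham, 6 h and 12 h groups (adjusted p = 0.000522) or without the filter on low counts (adjusted p = 1.65e-05), and its 12 h libraries ranged from below to above sham.

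Interferon-inducible and MHC-related genes gave 5 members, 2 of them called lower, and the pair with the highest sham level per kb of gene model. These were Iigp1 with 65.1 and Irgm2 with 39.4 CPM per kb, GTPases that act against intracellular pathogens. Iigp1 had 169.7, 148 and 292 CPM in sham, 96.4, 194 and 61.6 CPM after ischemia, 246, 47.6 and 67.5 CPM at 3 h and 77.5, 33.6 and 31.3 CPM at 6 h. The 3 h and ischemia libraries overlapped, the change was not called (0.05 ± 0.44, adjusted p = 0.953), and its sign turned when single libraries were left out. Irgm2 had a log2 fold change of -0.27 ± 0.43 (adjusted p = 0.692), and Ddx60, an interferon-induced helicase, fell on the log2 scale by 1.23 ± 0.29 (adjusted p = 0.00291).

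Atcay, Pirt and Lgi1 are known best from nerve and were not part of a list. Atcay, a neuronal trafficking adaptor, had 7.54, 7.91 and 12.99 CPM after ischemia, 2.00, 1.26 and 2.15 CPM at 1 h, 0.433, 2.09 and 0.818 CPM at 3 h and 4.31, 0.708 and 0.062 CPM at 6 h. Its log2 fold change from ischemia to 3 h, -2.94 ± 0.73 (adjusted p = 0.00463), was the lowest of the 192. Pirt, a regulator of TRP channels in sensory neurons, had 22.9, 18.9 and 19.0 CPM after ischemia and 7.17, 4.44 and 6.17 CPM at 3 h, without overlap (-1.69 ± 0.36, adjusted p = 0.00136). Lgi1, a secreted synaptic protein, was at 9.09% of sham at 6 h and was not called from ischemia to 3 h (-0.55 ± 0.25, adjusted p = 0.117). It was called with duplicate reads removed (-0.66, adjusted p = 0.0331) and without ischemia replicate 3 (-0.76, adjusted p = 0.0328). Summed Schwann and neural markers, 1 of which is itself among the 192, were at 23.1 to 27.3 CPM in sham, 14.98 to 20.4 CPM at 3 h, 12.97 to 16.0 CPM at 6 h and 15.6 to 26.3 CPM at 12 h. The part of these markers in the values of Atcay, Pirt and Lgi1 was not tested.

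Among genes of other roles, Cyb5r2, a reductase of cytochrome b5, fell by 1.80 ± 0.32 (adjusted p = 0.000207) and Cmah, the hydroxylase that makes N-glycolylneuraminic acid, by 1.79 ± 0.28 (adjusted p = 6.70e-05) from ischemia to 3 h. Cmah had 6.30, 4.89 and 4.35 CPM after ischemia and 1.73, 1.27 and 1.20 CPM at 3 h, without overlap. Slc16a9, a monocarboxylate carrier, fell by 1.68 ± 0.25 (adjusted p = 4.14e-05). Of the 3 DNA repair genes, Mlh3 (-0.77 ± 0.18, adjusted p = 0.00261) and Shld1 (-0.72 ± 0.23, adjusted p = 0.0261) were called lower. The call of Shld1 was lost without ischemia replicate 2 or 3 (adjusted p = 0.0606 and 0.0872), without 3 h replicate 1 (adjusted p = 0.126) and in the fit of the 15 libraries (adjusted p = 0.0503). St6galnac3, a sialyltransferase, was among the genes with the steepest return: 4.0, 2.82 and 4.53 CPM after ischemia, 3.22, 4.44 and 4.78 CPM at 3 h, 0.839, 0.118 and 0.62 CPM at 6 h and 3.42, 5.12 and 2.00 CPM at 12 h. Its 3 h libraries overlapped with those of ischemia (0.25 ± 0.35, adjusted p = 0.649), and it had 26 reads in all at 6 h. Lgals4 encodes a galectin, a sugar-binding protein. It had 46.6, 42.4 and 47.0 CPM in sham, 40.9, 52.4 and 53.0 CPM after ischemia, 40.0, 31.7 and 41.5 CPM at 3 h and 23.2, 13.6 and 11.1 CPM at 6 h, and was not called at 3 h (-0.28 ± 0.21, adjusted p = 0.363).

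The 192 genes had longer genomic spans than the 10319 genes that passed the sham condition, with medians of 47106.5 and 26786 bases. Spans of 100 kb or more were held by 54 of the 192 (28.1%) and by 14.5% of the 10319. The length of the gene model had a median of 5275 bases against 4206, and the largest number of exons in a transcript 9 against 10. Neighbouring pairs within 200 kb numbered 14, among them Fbxo32 and Klhl38, Scd2 and Scd4, Ttc30b and Ttc30a1, Cep97 and Senp7, and the ABCA genes. For 9 genes more than 20% of exon bases overlap another gene, among them Klhl38, Slc16a9 and Gm45713 (42.0%), and for Gm13212 only 72.4% of reads mapped uniquely, so their counts are uncertain.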

How the data were processed

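RNA of 24 mouse heart libraries, 3 in each of 8 groups, was analysed from 1 table per library. The deposited values are raw read counts per gene, given per the file headers for uniquely mapped reads with and without duplicates and with multiply mapped reads added. Per the submitters' processing notes the authors used the mm10 build; an aligner, counter, annotation release or strand setting was not given in the sources used here. The class of unique reads that keeps duplicates was taken here, divided by library totals for CPM and by the deposited gene length for CPM per kb. Gene types and coordinates came from GENCODE vM21 (GRCm38), which held 45229 of the 46078 identifiers, and promoters from RefSeq.

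All libraries entered 1 fit with edgeR 4.0.16 (R 4.3.3) with TMM factors of 0.858 to 1.16, after filterByExpr with a minimum count of 10 and a total of 15. Each group had 1 coefficient, and the quasi-likelihood test was adjusted over 15128 genes by Benjamini-Hochberg. The SE is the log2 fold change divided by the square root of the F statistic. The fit was tested on simulated data. DESeq2 1.42.0, limma-voom (limma 3.58.1), other scalings, filters and read classes, a replicate block and leaving out each library were tried.

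The 192 genes and all lists were chosen with earlier results of these data known. Genes named by rule were those with the highest sham level per kb, the largest called falls and rises, the lowest 6 h and steepest 12 h ratios, those next to the limits and those in the pathway lists; others were named for their role after their values were seen. A few genes that the rule or the roles would name are not reported here.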

Additional observations from a re-analysis of the deposited data

How the results depend on the processing

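The count of the 192 genes called lower was 106 to 127 from ischemia to 3 h and 59 to 84 from 0.5 h to 3 h under the other tools, scalings, filters and read classes, and 38 to 65 from 1.5 h to 3 h. Leaving out 1 library gave 78 to 117, 42 to 66 and 16 to 58 in these comparisons. The counts over all genes tested moved as well. Under the other settings they were 1420 of 14641 to 2349 of 15128, 922 of 14641 to 1920 of 15128, and 288 of 14641 to 602 of 15128. Without 1 library of the comparison they were 1064 of 15441 to 2169 of 15442, 673 of 15435 to 1064 of 15421, and 143 of 15439 to 701 of 15440. Without the filter on low counts, 2, 2 and 1 of the 192 were called higher in the same comparisons, against 2029, 1716 and 1048 of 26977 over all genes. From 0.5 h to 1.5 h, 6 of the 192 were then called lower and 7 higher. With only the 15 libraries of the groups not used in the choice, 1 of the 192 was called higher from ischemia to 3 h and 1 from 0.5 h to 3 h. Over all genes that fit called 1709 and 1423 of 14641 higher. From 0.5 h to 1.5 h, DESeq2 called 3 higher, and limma-voom, library totals and removal of duplicates each called 0, and leaving out single libraries gave 0 to 1. The number of genes meeting the conditions was 324 with duplicates removed (183 shared), 158 with TMM-scaled libraries (148 shared), 149 with multiply mapped reads (148 shared) and 135 to 269 without single libraries. The cilium list genes outside the 192 numbered 9 to 18 under the other settings and 6 to 13 without single libraries.

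Samples with the same replicate number did not deviate together: over 84 such pairs the correlation of deviations was -0.179 to 0.199, with a median of -0.00649. With the replicate number as a block, 116, 65 and 43 genes were called lower in the comparisons that end at 3 h, and 0 lower and 1 higher from 0.5 h to 1.5 h.

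The log2 fold change of Iigp1 from ischemia to 3 h turned sign with limma-voom (-0.075) and with the replicate block (-0.027), and it was -0.911 to 0.658 when single libraries were left out. The same ranges held both signs for Irgm2 (-1.047 to 0.218) and Klhl33 (-0.316 to 0.386). The cause was not tested. Of 83 values of named genes 63 were called, and 46 of these kept their call under every alternative run. Genes with few reads at 6 h, 10 to 26 for Spon2, Ubxn10 and St6galnac3, have the least certain 6 h and 12 h ratios.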
